A study of Mus musculus with 9 samples.

Results

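The Sox genes of groups C to F were described through the accessible chromatin assigned to them: Sox4, Sox11 and Sox12 of group C, Sox5 and Sox6 of group D, Sox8 and Sox9 of group E, and Sox7, Sox17 and Sox18 of group F. The 10 genes were chosen by family, and the regions described are the distinct ones that carried their symbols in the annotated list of the wild-type embryos. There were 22 such regions among 17164 distinct regions, which were assigned to 11541 genes. A gene whose symbol was absent from the list was counted as having no assigned region.

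The study profiled accessible chromatin with ATAC-Seq, an assay that tags open DNA with the Tn5 transposase, in the heart and pharyngeal mesoderm of mouse embryos at E8.75 with 6 somites. The 9 libraries comprised 3 wild-type (wt), 3 Isl1-/- and 3 Isl1Cre+/-/ Brg1fl/fl libraries, so that loss of the LIM-homeodomain factor Isl1 could be set beside loss of Brg1, the ATPase of the SWI/SNF remodelling complex. Cre from the Isl1 locus acts in Isl1-expressing cells and their descendants, so the dissected tissue of those embryos also holds cells outside that lineage. Values were used only for the wild-type libraries, as 1 list of regions common to all 3. The Isl1-/- and Isl1Cre+/-/ Brg1fl/fl libraries were not analysed here, and no comparison between genotypes was made. The list gives a position, a distance and a symbol for each region but no height and no value per library. The depth is therefore unknown, there is no replicate error, and the comparisons below are descriptions without a test.

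Sox factors are transcription factors with an HMG box, a domain that binds the minor groove of DNA and bends it, and the groups are defined by similarity of that box. SoxC factors act in progenitors of many tissues, including neural crest and the cardiac outflow tract. SoxD factors lack an activation domain of their own, dimerise through a coiled coil and work beside Sox9 in cartilage. SoxE factors act in neural crest, cartilage, gonad and heart valve precursors, and SoxF factors act in endothelium, with Sox17 also known for its role in definitive endoderm.

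Sequences are shown for the places on which the description turns: the centre of a region over CpG-poor starts, upstream and intronic elements with SOX motifs, and the CpG-rich starts of the genes with no assigned region. All are from the mm9 build and read 5′ to 3′ on the strand of the gene. Capitals mark matches, on either strand, to any of the 12 short motifs searched, which were SOX (ACAAAG and ACAATG), the GATA factor motif (AGATAA), E-box (CAGATG), TEAD (GGAATG), AP-1 (TGANTCA), RBPJ (GTGGGAA), forkhead (GTAAACA), ETS (CCGGAAG), LEF (ATCAAAG), homeobox (TAATTA) and GC box (GGGCGG). The matches do not overlap within the windows printed. The region over the outer Sox5 starts is shown by its central 300 bp at chr6:144158490-144158789, minus strand, which lie upstream of those starts, contain none of them and hold both SOX motifs and a forkhead motif. The widest of the upstream Sox5 regions is shown by chr6:144199656-144199955, minus strand, with a SOX and a GATA motif. An intronic Sox6 region, chr7:122789222-122789521 on the minus strand, holds the motif ACAAAG on each strand. The upstream Sox17 region, chr1:4561552-4561851 on the minus strand, holds SOX, AP-1, RBPJ and GC box motifs. The 200 bp before the outer Sox8 start are chr17:25707632-25707831 on the minus strand, and those before the Sox7 start are chr14:64562311-64562510 on the plus strand. Both hold GC boxes. A match is a string of letters and not a shown binding site. The shares of all regions that hold these motifs are given below.
Sox5 region centre, upstream of the outer starts: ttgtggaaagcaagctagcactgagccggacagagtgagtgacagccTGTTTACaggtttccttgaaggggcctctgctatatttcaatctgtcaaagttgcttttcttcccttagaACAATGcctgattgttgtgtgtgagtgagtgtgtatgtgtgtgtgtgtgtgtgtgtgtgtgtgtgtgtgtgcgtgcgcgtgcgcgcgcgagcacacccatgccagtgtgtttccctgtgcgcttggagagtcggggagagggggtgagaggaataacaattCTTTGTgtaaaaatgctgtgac
Sox5 distal upstream: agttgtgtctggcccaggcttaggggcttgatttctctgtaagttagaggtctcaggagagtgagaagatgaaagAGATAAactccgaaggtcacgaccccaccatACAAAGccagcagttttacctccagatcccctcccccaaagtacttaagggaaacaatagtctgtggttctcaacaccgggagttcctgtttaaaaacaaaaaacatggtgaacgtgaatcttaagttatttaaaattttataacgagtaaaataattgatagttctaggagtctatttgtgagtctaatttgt
Sox6 intron: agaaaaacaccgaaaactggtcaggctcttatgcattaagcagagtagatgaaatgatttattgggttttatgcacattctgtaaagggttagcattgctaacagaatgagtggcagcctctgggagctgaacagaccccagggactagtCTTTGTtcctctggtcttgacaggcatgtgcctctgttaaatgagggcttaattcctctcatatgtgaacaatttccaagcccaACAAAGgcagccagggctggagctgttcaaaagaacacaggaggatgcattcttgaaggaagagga
Sox17 upstream: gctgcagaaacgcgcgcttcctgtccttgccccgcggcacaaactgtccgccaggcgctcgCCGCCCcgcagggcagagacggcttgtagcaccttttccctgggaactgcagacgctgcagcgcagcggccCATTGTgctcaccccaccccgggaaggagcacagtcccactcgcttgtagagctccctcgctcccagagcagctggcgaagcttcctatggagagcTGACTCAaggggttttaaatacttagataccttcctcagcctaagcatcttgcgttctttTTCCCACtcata
Sox8 before the start: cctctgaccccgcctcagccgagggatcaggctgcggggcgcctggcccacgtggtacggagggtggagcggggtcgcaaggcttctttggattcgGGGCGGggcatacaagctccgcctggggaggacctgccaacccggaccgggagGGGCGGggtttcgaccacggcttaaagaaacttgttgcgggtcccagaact
Sox7 before the start: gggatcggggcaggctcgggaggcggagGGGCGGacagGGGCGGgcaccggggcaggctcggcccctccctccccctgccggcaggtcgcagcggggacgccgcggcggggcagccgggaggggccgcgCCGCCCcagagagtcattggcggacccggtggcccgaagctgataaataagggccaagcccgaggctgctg

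Accessible regions were assigned to 8 of the 10 Sox genes, where 49.3% of 21031 protein-coding genes had one. A region centred within 1 kb of the assigned transcription start, called a promoter region here, was found for 5 of the 10, namely Sox4, Sox11, Sox12, Sox5 and Sox9, against 40.6% of protein-coding genes. At least 2 regions were assigned to 6 of the 10, against 12.9%. The intervals between the nearest other protein-coding starts had medians of 0.780 Mb for the Sox genes and 0.0898 Mb for protein-coding genes. These counts were not adjusted for that difference. Sox5 had 7 regions, Sox6 had 4, Sox4 had 3, Sox11, Sox12 and Sox17 had 2 each, and Sox9 and Sox18 had 1 each. Sox8 and Sox7 had none. The median was 2 regions per Sox gene and 0 per protein-coding gene, or 2 and 1 among the genes that had any. As many regions as Sox5 were assigned to 82 protein-coding genes (0.390%, Sox5 included), and as many as Sox6 to 531 (2.52%). Since 1 list stands for the 3 libraries, a difference of 1 region between genes has no error to be read against.

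**Figure D1:**
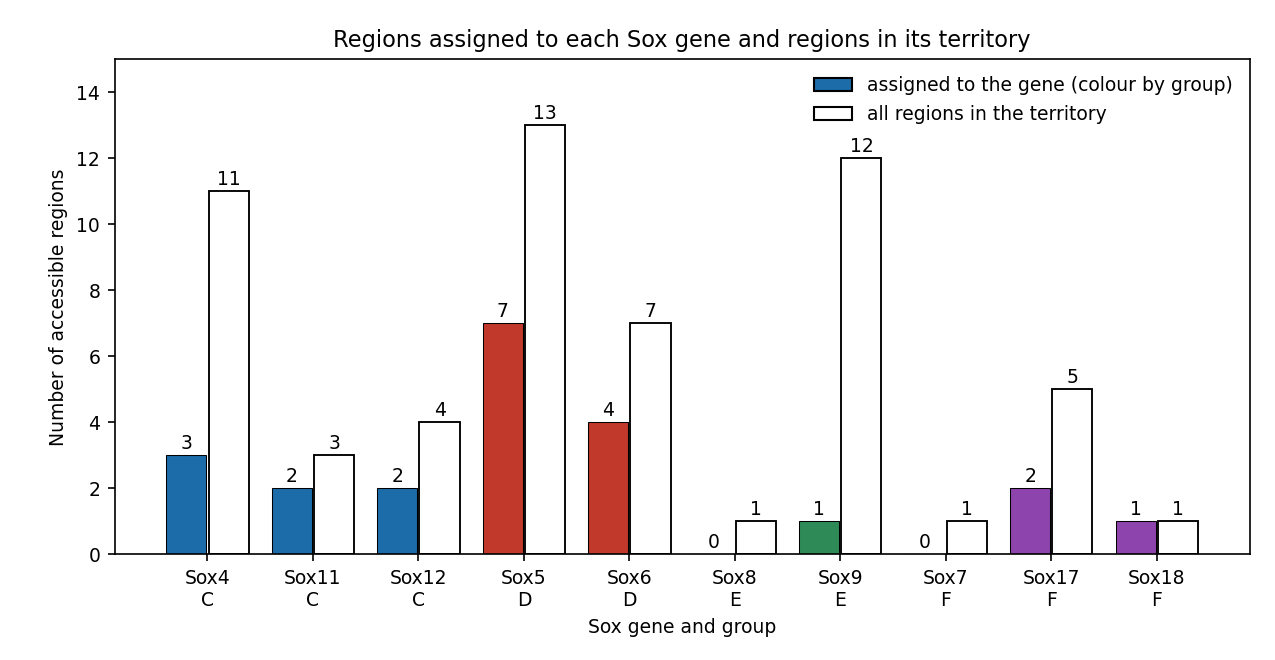
Bars give the number of accessible regions (y axis) for each Sox gene and its group (x axis). Filled bars are regions assigned to the gene and open bars are all regions between the nearest starts of other protein-coding genes. Sox9 had 1 assigned region and 12 in that interval. Sox8 and Sox7 had none assigned and 1 in the interval. The region at Sox8 lay over its outer start, and that at Sox7 lay over the start of Pinx1, which bounds the interval.

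The 3 SoxC genes each had a promoter region, and together they held 7 regions that covered 13312 bp. Sox4, a regulator of outflow tract and lymphocyte progenitors, had a 1378-bp region at chr13:29044748-29046125 over both of its annotated starts. A wider region of 2596 bp, chr13:29049418-29052013, lay 5164 bp upstream in intergenic sequence. It held 4.78 CpG per 100 bp, where the median of all regions 1 to 10 kb from their starts was 2.46. Of all regions in the list, 1.65% were at least that wide. The third Sox4 region, chr13:29033925-29034785, was 861 bp wide and lay 11196 bp downstream of the start, past the end of the gene.

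Sox11, which acts in neural and mesenchymal progenitors, had a 2150-bp region over its start at chr12:28026722-28028871. It covered 46.6% of the 1185-bp coding sequence, which lies in a single exon. The other Sox11 region, chr12:28187475-28188383, was 909 bp wide and lay 160346 bp upstream. Sox12, the remaining SoxC factor, carried the widest region of the 22. That region, chr2:152221123-152225470, spanned 4348 bp, and 9 of the 17164 regions, itself included, were at least as wide. It held the start and all 942 bp of coding sequence. The other Sox12 region, of 1070 bp at chr2:152231447-152232516, lay 8199 bp upstream.

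**Figure D2:**
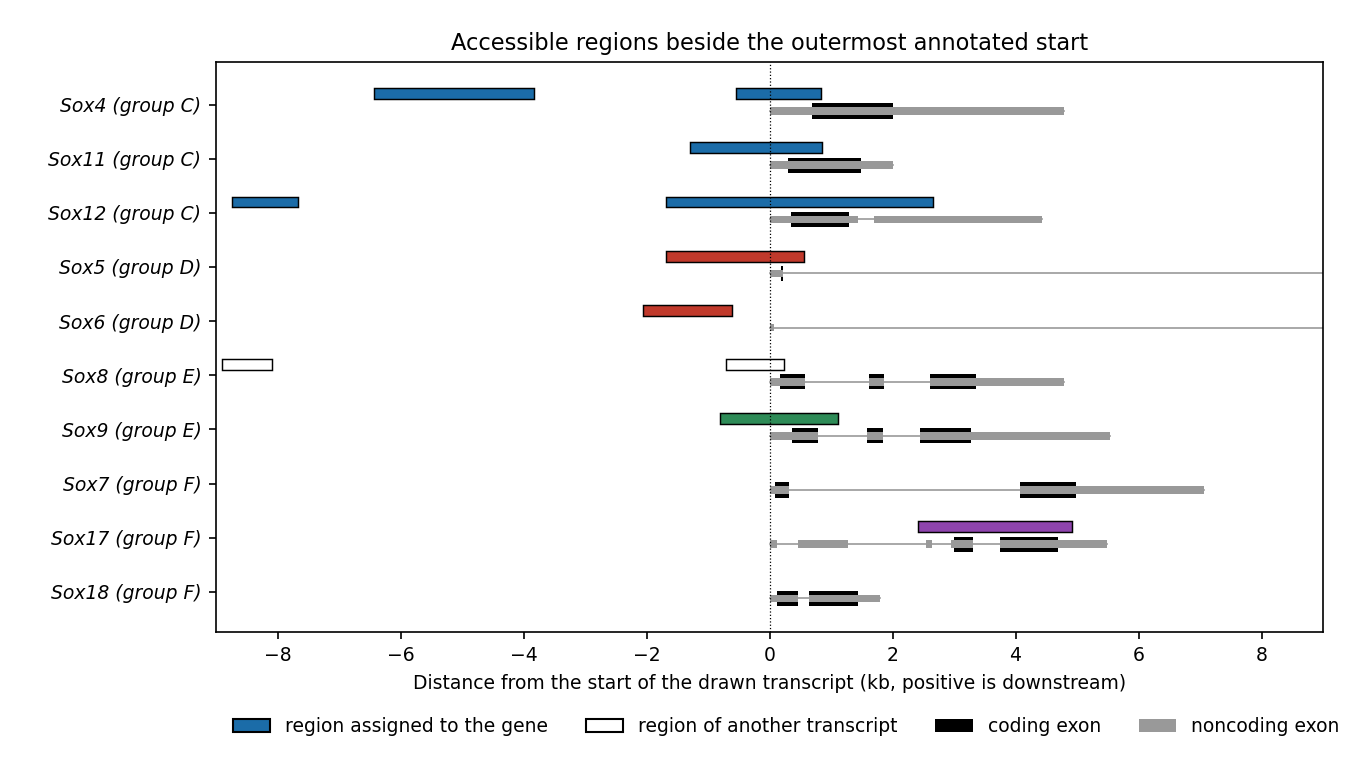
Positions are in kb from the outermost annotated start of each Sox gene (x axis, positive is downstream), with accessible regions as bars above the exons, filled where assigned to the gene and open where assigned to another transcript. Regions overlie the starts of Sox4, Sox11, Sox12, Sox5, Sox8 and Sox9; the Sox6 region lies upstream of the start, the Sox17 region lies over the coding exons, and no region falls within the window at Sox7 or Sox18.

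The long SoxD genes held 11 of the 22 regions, and 1 of the 11 was a promoter region. Sox5, a partner of Sox9 in cartilage, has 7 annotated starts in 2 sets more than 200 kb apart. Its promoter region, chr6:144157514-144159767 and 2254 bp wide, covered the 3 starts of the outer set. The 4 starts of the inner set lay between 5150 and 5168 bp from the nearest region. That nearest region, chr6:143889441-143890458, was centred on a coding exon 5677 bp downstream of the inner starts, and chr6:144103128-144104127 was centred on another coding exon. A further Sox5 region lay in an intron, at chr6:143987516-143988758. The other 3 Sox5 regions lay upstream of the outer starts at 41718, 55019 and 151776 bp, and were 1631, 972 and 1014 bp wide. All 3 were intergenic. The list measured 5 of the 7 Sox5 distances from the outer start and 2 from the inner start under the same transcript accession.

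Sox6, the other SoxD factor and a regulator of cartilage, muscle fibre type and erythroid genes, had 4 regions and none over any of its 5 annotated starts. The closest, chr7:123182870-123184311, was 1442 bp wide and ended 612 bp upstream of the outermost start, with its centre 1332 bp away. This centre missed the limit of 1 kb for a promoter region and fell inside the alternative limit of 2 kb. The other Sox6 regions were 1062, 1136 and 1127 bp wide and were measured from a different start, 386206, 232703 and 155751 bp downstream of it. The middle and the nearest of these lay in introns of Sox6, at chr7:122711853-122712988 and chr7:122788809-122789935. The farthest, chr7:122558387-122559448, was intergenic.

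The SoxE genes had 1 assigned region between them. Sox9, a regulator of cartilage and of heart valve precursors, had a 1922-bp region over the outer of its 2 annotated starts at chr11:112642735-112644656, which held 28.3% of the coding sequence. Sox8 had no region of its own, but its outer start at chr17:25707631 lay inside an accessible region. That region, chr17:25707398-25708338 and 941 bp wide, was assigned to the noncoding transcript 2810468N07Rik, whose start was 112 bp from its centre. The sequence printed for Sox8 lies in it. Counting any region with a start inside it, whatever its symbol, 6 of the 10 Sox genes had a covered start, the 5 with a promoter region and Sox8, against 43.4% of 22219 annotated protein-coding genes. Of the 9645 protein-coding genes with a covered start, 846 (8.77%) had no region of the same symbol and a name found in the RefSeq gene table. Genes with names absent from that table were left out of the 846 but not of the 9645.

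The SoxF genes had 3 regions and no promoter region. Sox17 had a 2505-bp region at chr1:4481574-4484078 that held all 1257 bp of its coding sequence and neither of its annotated starts, the nearer of which was 2366 bp away. Only Sox12 and Sox17 among the 10 had their whole coding sequence inside regions, as did 0.968% of protein-coding genes. This Sox17 region, centred 4609 bp from the assigned start, held 7.07 CpG per 100 bp. The median was 2.46 in its own class, 1 to 10 kb, and 5.93 for regions within 1 kb. The other Sox17 region, chr1:4561026-4562379, was 1354 bp wide and lay 74267 bp upstream. Sox18, a regulator of lymphatic and blood vessels, had a region of 1098 bp at chr2:181393842-181394939, 11955 bp downstream of an uncovered start. Sox7, an endothelial and haematopoietic regulator, had no region of its own, and the region nearest to its start was 82483 bp away and assigned to Pinx1.

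**Figure D3:**
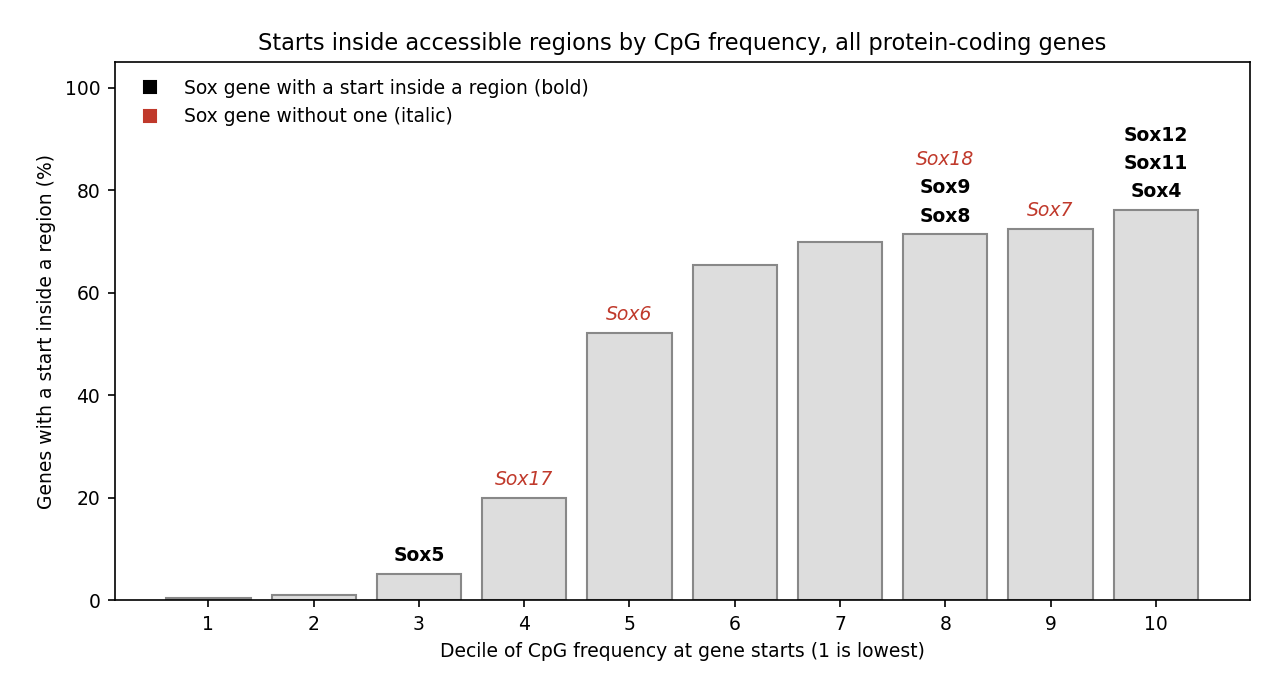
Bars give the percentage of protein-coding genes with a start inside a region (y axis) for 10 equal classes of genes ranked by CpG frequency at the start (x axis), and the Sox genes are written above their class, bold where a start was inside a region and italic where none was. Sox5 was covered in a class where 5.09% of genes were, and Sox7 was not covered in a class where 72.5% were.

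CpG frequency around the start, taken over 1001 bp and as the highest value among the annotated starts of a gene, ran with the share of covered starts over all genes. It rose from 0.495% of genes in the lowest of 10 equal classes to 76.1% in the highest. Sox4, Sox11 and Sox12, with 10.3, 10.9 and 12.8 CpG per 100 bp, were in the highest class and were covered. Sox8 and Sox9, with 7.49 and 7.59, were covered in a class where 71.4% of genes were. Sox18 had the same 7.49 and was not covered, and Sox7 had 8.19 and was not covered. Sox5 differed in the other direction, with 1.80 CpG per 100 bp and covered outer starts. Sox17 with 2.60 and Sox6 with 3.20 were uncovered in classes where 20.0% and 52.2% of genes were covered. RefSeq promoter windows of 300 bp around a start, from the GRCm38.p6 table, were present for Sox4, Sox11, Sox12, Sox5, Sox6 and Sox8, and all 11 windows matched the mm9 sequence exactly. The windows of Sox4, Sox11, Sox12 and Sox8 lay wholly inside regions. The Sox5 window, which belongs to the inner start, and the 6 Sox6 windows did not overlap any. The table held no entry for Sox9, Sox7, Sox17 and Sox18.

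The share near a start was lower for the Sox gene regions than for all regions, a difference with no test. Of the 22 regions, 5 lay within 1 kb of the assigned start (22.7%, Wilson 95% interval 10.1% to 43.4%, which covers counting error only), against 52.9% of all regions. Another 5 lay at 1 to 10 kb, against 7.81% of all regions, 7 at 10 to 100 kb (31.8% against 24.4%) and 5 beyond 100 kb (22.7% against 14.9%). Of the 17 beyond 1 kb, 8 were downstream and 9 upstream of the start. By midpoint, 11 of these lay in intergenic sequence, 4 in introns and 2 in coding exons. Regions of the same gene share a locus and are not independent of each other. The 2 SoxD genes alone held 11 of the 22 regions and 1 of the 5 within 1 kb.

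The median width of the Sox gene regions was 1189.5 bp, against 1123 bp for all regions, although most lay away from starts, where regions are narrower. Within 1 kb the medians were 2150 and 1294 bp, and beyond 1 kb they were 1098 and 950 bp. Of the 22 regions, 19 (86.4%) were wider than the median of all regions in their own distance class, against 49.9% of all regions. Widths of at least 2000 bp were found for 5 of the 22, at Sox4, Sox11, Sox12, Sox5 and Sox17 (22.7%, against 6.57% of all regions). The narrowest was the downstream Sox4 region of 861 bp. The list gives no depth against which these widths could be set.

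**Figure D4:**
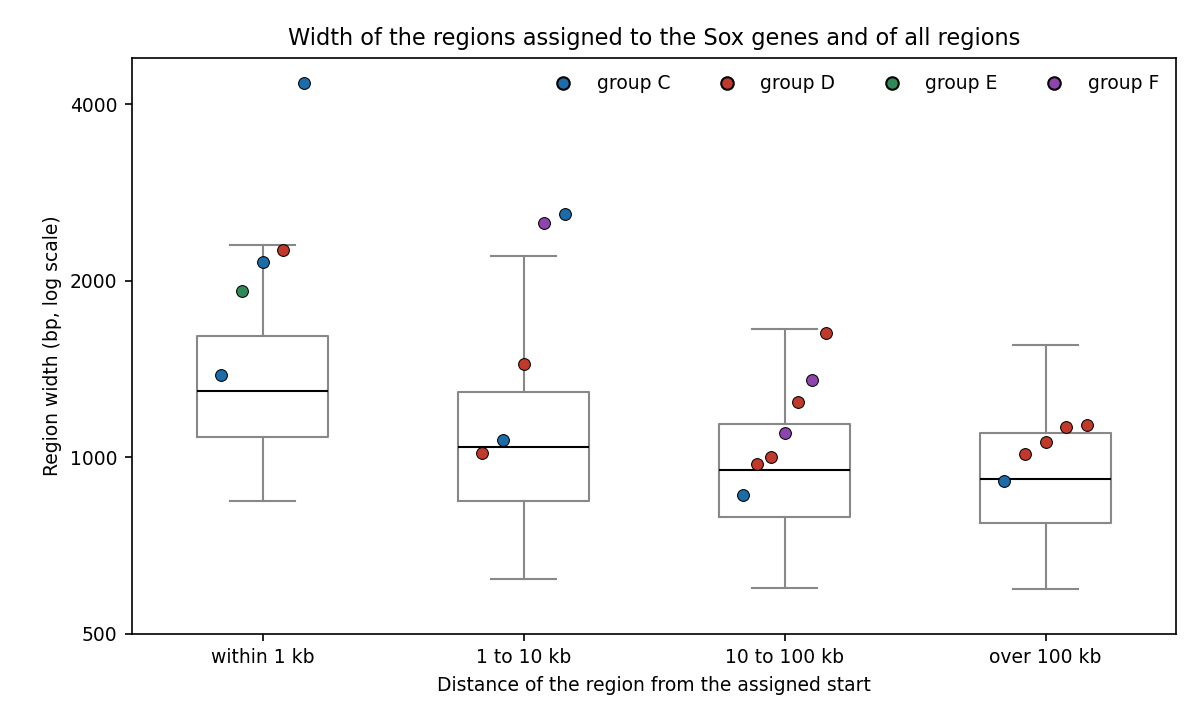
Each point is the width in bp (y axis, log scale) of a region assigned to a Sox gene, coloured by Sox group, in 4 classes of distance from the assigned start (x axis). Boxes give the quartiles and median of all regions and whiskers the 5th and 95th percentiles; the widest point is the Sox12 promoter region of 4348 bp, and 19 of the 22 points are above the median of their class.

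Each region carries only 1 symbol, so the intervals around the Sox genes were also read whatever the symbol. The interval from the nearest protein-coding start on one side to that on the other, called a territory here, had a median of 0.780 Mb for the Sox genes and 0.0898 Mb for protein-coding genes. The 10 territories held 58 regions, of which 22 were assigned to the Sox genes and 36 to other transcripts. Regions with a noncoding RefSeq accession were 23 of the 58 (39.7%) and 10.2% of the whole list. The territories were cut at the nearest protein-coding starts outside the gene's own starts, so these shares do not measure the same thing. Sox9 had the most regions that carried other symbols. Its territory of 1.13 Mb, between Gm11678 and Slc39a11, held 12 regions, of which 11 had other symbols: 3 each for BC006965, 1700012H19Rik and 2610035D17Rik and 1 each for Gm11681 and 4732490B19Rik. They lay between 29002 and 450035 bp from the Sox9 start. BC006965 carries a protein-coding accession in the list but is noncoding in the annotation and in the gene table, and so was not used as a boundary. Bounded at the BC006965 start that the listed distances imply, an alternative chosen after the data were seen, the Sox9 territory spanned 0.854 Mb and held 9 regions, or 10.5 per Mb.

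Sox5 had 13 regions in 1.87 Mb between Etnk1 and Bcat1, including 4 assigned to the transcript Sox5os3. Sox4 had 11 in 1.33 Mb between the starts of Prl5a1 and Cdkal1, including 4 assigned to Mir6368. Territories end at starts and can enter a neighbouring gene, and the Sox4 territory region chr13:29462498-29463474 lay in an intron of Cdkal1. Sox6 had 7 in 1.16 Mb, of which 3 carried the symbol A730082K24Rik. Sox11 had 3 in 1.39 Mb, or 2.16 per Mb. These 5 Sox genes had territories of at least 1 Mb, as did 917 protein-coding genes in all. The median in this class was 5 regions and 3.13 per Mb. Sox9 was in the class by its boundary at Gm11678, as its territory spanned 0.854 Mb when bounded at the BC006965 start. In this class the density at Sox9, 10.6 per Mb, stood at percentile 98.6, and that at Sox4, Sox5, Sox6 and Sox11 at percentiles 95.4, 90.4, 84.2 and 32.5. These counts depend on the boundary: where any annotated gene, noncoding ones included, ended the interval, Sox9 had 1 region in place of 12 and Sox4 had 2 in place of 11, while Sox5 had 10 in place of 13, Sox11 had 2 in place of 3 and Sox6 again had 7. The territories of Sox12, Sox8, Sox7 and Sox18 spanned 0.0384, 0.0819, 0.127 and 0.0790 Mb and held 4, 1, 1 and 1 regions. Sox17 had 5 in 0.425 Mb. At Sox12, Sox7 and Sox17, 1 region each was centred within 1 kb of a bounding start, that of Zcchc3, Pinx1 and Mrpl15. For Sox7 this was its only region. The gene on which any of these regions acts was not measured.

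**Figure D5:**
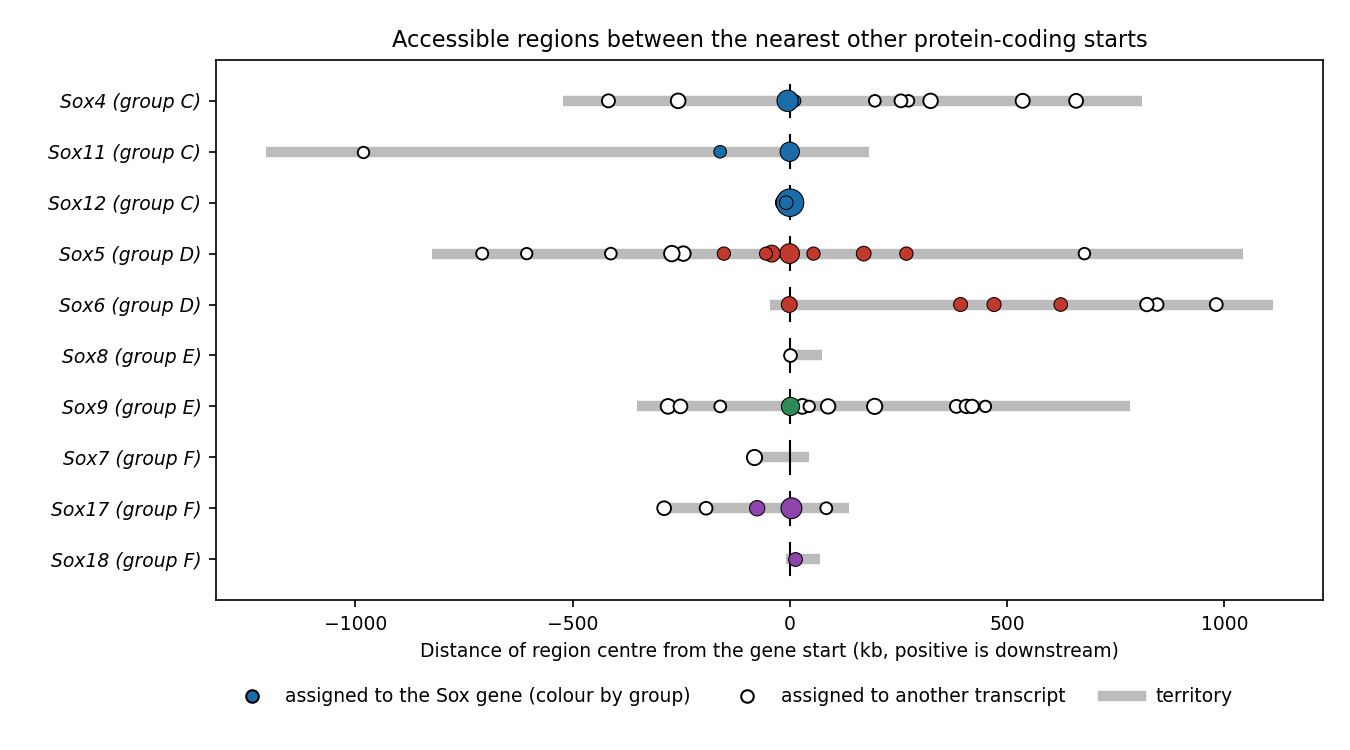
Points are accessible regions at their distance in kb from the start of each Sox gene (x axis, positive is downstream), filled where assigned to the gene and open where assigned to another transcript, with point area in proportion to width. Grey bars run from the nearest protein-coding start on one side to that on the other; 11 of the 12 points at Sox9 are open, and the single point at Sox18 is filled.

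SOX motifs, either ACAAAG or ACAATG, were found in the central 300 bp of 10 of the 22 regions (45.5%) and of 29.1% of all regions. Beyond 1 kb the shares were 52.9% of 17 and 44.9%, which are close. Of the 7 Sox5 regions, 6 held one, among them the pair printed above. The remaining 4 were at Sox6, with 2 regions, and at Sox17 and Sox18 with 1 each, and no SoxC region or Sox9 region held one in its centre. Other motifs also vary with distance, so they are given by class. The E-box was in 5 of the 17 Sox gene regions beyond 1 kb (29.4%) against 21.9% of all regions there, and the GC box in 2 (11.8%) against 19.3%. Within 1 kb the GC box was in 3 of 5 (60.0%) against 69.2%. The ETS motif was in none of the 17 or the 5, against 3.35% beyond and 16.2% within 1 kb, and the LEF motif was in none, against 5.17% and 1.46%. Beyond 1 kb the TEAD motif was in 11.8% against 22.2%, GATA in 11.8% against 14.5% and homeobox in 5.88% against 8.12%. AP-1 was in 5.88% against 8.59% there, RBPJ in 5.88% against 6.71% and forkhead in none against 5.53%. Within 1 kb only forkhead among these was found, in 1 of 5 against 1.84%. Over whole regions the LEF motif was in 13.6% of the 22 and 13.7% of all, and the ETS motif in 4.55% and 21.5%. Over whole regions beyond 1 kb the TEAD motif was in 70.6% against 49.5%, the reverse of the order in the centres. The homeobox motif was in 52.9% against 25.5% there. Whole-region shares were not matched for width. These shares rest on few regions and were not tested. Shares move with the window: over whole regions a SOX motif was in 81.8% of the 22 and 71.5% of all.

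The labelled tissue was checked against marker genes of the heart and pharyngeal mesoderm, of which 5 of 8 had a region. Isl1 had 9, Mef2c 5 and Tbx20 4, while Nkx2-5, Tnnt2 and Tbx1 had none. Of markers of other cells that such a dissection could hold, a region was assigned to 2 of 4 for neural crest, 4 of 5 for endothelium, 2 of 5 for endoderm, 2 of 4 for neural tube and 2 of 4 for blood, and to 2 of 3 liver genes, Alb and Ttr. With 49.3% of all protein-coding genes having a region, these counts do not tell the labelled tissue from the other cell types. Markers of other cells also had several: Ets1 for neural crest, Foxa2 for endoderm and Pax6 for neural tube had 4 regions each. Cdh5 for endothelium had 3. Defining genes without a region were Sox10 and Tfap2a for neural crest, Pecam1 for endothelium, and Foxa1, Cdh1 and Shh for endoderm. Sox2 and Pax3 for neural tube, Gata1 and Hbb-bh1 for blood and Apoa2 for liver had none either. In a dissected tissue, a site open in few cells and a site weakly open in many cannot be told apart, and the part of other cell types in the Sox gene regions was not tested. A gene without a region is not shown to be closed.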

How the data were processed

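The 9 ATAC-Seq libraries were assigned to 3 groups by labelled genotype. According to the methods, bowtie2 alignments to mm9 were restricted by the authors to primary, properly paired reads (samtools) and freed of duplicates (Picard 1.136). MACS14 peaks were called in each library with no model and a fixed shift, ENCODE blacklist peaks were dropped, and bedtools 2.15 gave the regions shared by the 3 wild-type libraries by 1 bp or more. Each deposited entry holds start, end, signed distance in bp from the region centre to a transcription start, a RefSeq accession and a symbol. The fixed shift widens regions, no Tn5 offset is stated, and the tool that assigned genes is not given in the sources used here. A common region keeps the coordinates of 1 library, and requiring all 3 removes weak sites.

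Distinct positions were counted once (17432 entries, 17164 regions). Width was end minus start plus 1. Sequence and gene structure came from NCBIM37, which is mm9, with its GENCODE annotation. The RefSeq gene table of GRCm38.p6 gave names (all 10 Sox genes matched) and the 21031 protein-coding genes, and its coordinates were not used. Motifs were searched on both strands in the central 300 bp. All 10 Sox genes were described in full, and of the listed genes those with 3 or more regions or none were named. Territories were bounded by protein-coding starts of the GENCODE annotation, while transcripts in the list were called noncoding by accession type. The Sox genes and all lists were chosen with earlier results of these data known. Protein sequences were not used here, so the planned protein comparison was not made. In any Sox gene region, at most 4.32% of 31-base words occur more than once in the genome, repeats within the region included. Counting steps were tested on simulated data. Python 3.11.15, pandas 2.3.3, numpy 2.4.6 and pysam 0.24.0 were used.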

Additional observations from a re-analysis of the deposited data

How the results depend on the processing

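Of 106 values recomputed under other settings, 64 stayed within 1.5 times the reported value, or within its interval, and 42 moved. The summed count of 22 regions became 13 when regions narrower than the median were dropped, and 36 when each region was given to the nearest protein-coding start, with Sox4 at 8 and Sox9 at 7. The median width of 1189.5 bp became 2150 bp over promoter regions alone. The 58 regions in territories became 29 when any annotated gene bounded them (Sox9 from 12 to 1, Sox4 from 11 to 2) and 101 with a fixed 500 kb on both sides, and the share with a SOX motif rose from 45.5% to 81.8% over whole regions. Each of these shifts follows from how the setting was built (fewer regions, another assignment, shorter or longer intervals). The numbers of Sox genes with a region and with a promoter region, and the share of regions within 1 kb, stayed within 1.5 times or their interval. No paired analysis was possible because no result comes from a test and the single list carries no replicate number. For the same reason no library could be left out, and another overlap or peak threshold could not be applied. Depth is unknown, so how many weaker sites at the Sox genes went uncalled cannot be given.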

Other observations

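Among the 10 other Sox genes, 4 had an assigned region. Sox1 and Sox13 had 2 each, and Sox14 and Sox30 had 1 each. Sry, Sox2, Sox3, Sox21, Sox10 and Sox15 had none, although the start of Sox21 lay inside a region assigned to LOC105245869. Sox13, the SoxD relative of Sox5 and Sox6, had its nearer region 26334 bp from the assigned start, and its wider region spanned 1983 bp.

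Of 14 genes with which SoxF factors act in endothelium, 9 had a region and 5 a promoter region. The transcription factor gene Mef2c had 5 regions, and the adhesion gene Cdh5 and the receptor gene Flt1 had 3 each. The 3 regions of Cdh5 were all at least 24420 bp from its start. Tie1, Cldn5, Notch1, Dll4 and Egfl7 had none. Of 8 cartilage matrix genes known as targets of Sox9, Sox5 and Sox6, 5 had a region, with 5 regions for the link protein gene Hapln1 and 3 for the collagen gene Col9a1, and none for Col11a2, Acan and Matn1. Neither of the 2 listed SoxC targets, Tead2 and Tubb3, had a region. The shares with a region, 40.0% of the other Sox genes, 64.3% of the endothelial list and 62.5% of the cartilage list, stand beside 49.3% of protein-coding genes and were not tested.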
